A study of Mus musculus with 8 samples.

Results

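A set of 9 genes was described across the 8 libraries of a hippocampal RNA-seq study: the microglia markers Cx3cr1, P2ry12, Tmem119, Csf1r, Trem2 and Tyrobp, and C1qa, C1qb and C1qc, which encode the chains of complement C1q. They were chosen by name, as the rows of the count table that carry these gene symbols, and they make up 9 of its 19558 genes and 24 of its 74764 transcripts. The animals were wild-type (WT) C57BL/6 KP mice dosed at P40. Vehicle mice (n = 4) received 4% DMSO in saline and the other 4 mice received KU55933, a small-molecule blocker of the ATM kinase, at 7.5 mg/kg, in each case through the nostrils under anesthesia. The labels repeat the 7.5 mg/kg figure for the vehicle mice, do not give a time between dosing and collection, and name RNA inputs for hypothalamus and PFC although every library is labelled hippocampus. The design answers one question, how transcript levels in the hippocampus differed after the ATM blocker.

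Microglia are the resident macrophages of the brain, and they depend on the receptor CSF1R for survival. They read neurons through CX3CR1, the fractalkine receptor, and injured tissue through P2RY12, a receptor for extracellular ADP, while TREM2 binds lipids and lipoproteins and signals through the adaptor TYROBP. Microglia are also the main brain source of C1q, which starts the classical complement pathway and is known for tagging synapses that microglia later remove.

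All 9 genes were measured in every library, at vehicle means of 10.9 to 95.9 normalised CPM (library-scaled counts, the levels given throughout), so the labelled tissue held microglial RNA in both groups. Vehicle libraries held 40586998 to 46630341 estimated counts and KU55933 libraries 34190440 to 37499003. Across the table, 15481 genes passed the low-count filter, and 1071 were called higher and 2267 lower in KU55933 by edgeR's quasi-likelihood F test at a Benjamini-Hochberg adjusted p of 0.05, the test behind every adjusted p given for a gene. Leaving out any 1 library other than KU55933 library 4 moved the number of higher calls by over 1.5 times, to between 151 (without vehicle library 3) and 1790 (without vehicle library 1), and without vehicle library 3 the lower calls fell to 1446. Over all genes with a known GC content, the log2 change fell as GC content rose (Spearman's rho -0.71 across 15470 genes, which are not independent replicates). The 9 choroid plexus markers summed to 1208 and 1270 CPM in KU55933 libraries 1 and 2, against 83.1 and 66.8 CPM in KU55933 libraries 3 and 4 and 57.6 to 121 CPM in vehicle. Of these 9 markers edgeR called 1 higher, DESeq2 5 and limma-voom 0, with 5 at an unadjusted p under 0.05 by edgeR and 0 to 6 called higher over 22 alternatives; none was at 0 in all libraries. Among markers of other cells, edgeR calls were 0 higher and 2 lower of 10 for astrocytes (2 higher by DESeq2 and 0 by limma-voom), 1 and 2 of 10 for neurons, 0 and 0 of 10 for oligodendrocytes (1 at an unadjusted p under 0.05, and 0 by DESeq2 and limma-voom), 1 and 1 of 10 for endothelium and 0 and 1 of 7 measurable blood markers.

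Of the 9 genes 3 fell with KU55933: C1qc by 0.77, Trem2 by 0.63 and C1qa by 0.50 on the log2 scale. None rose. The background was high, with 14.6% of all tested genes called lower, 6.92% called higher and 21.6% called in either direction. The median log2 change was -0.31 over the 9 genes and 0.01 over all genes tested. With edgeR 6 of the 9 had an unadjusted p under 0.05, P2ry12 in the higher direction and the rest in the lower. Over all tested genes 5846 of 15481 did. DESeq2 called 4 lower, the same genes and C1qb, and 0 higher, and limma-voom called 3 lower and 0 higher. In tissue RNA, fewer microglia and less RNA per microglial cell cannot be told apart. The labels count mice, and the p-values measure only the spread between these samples.

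**Figure D1:**
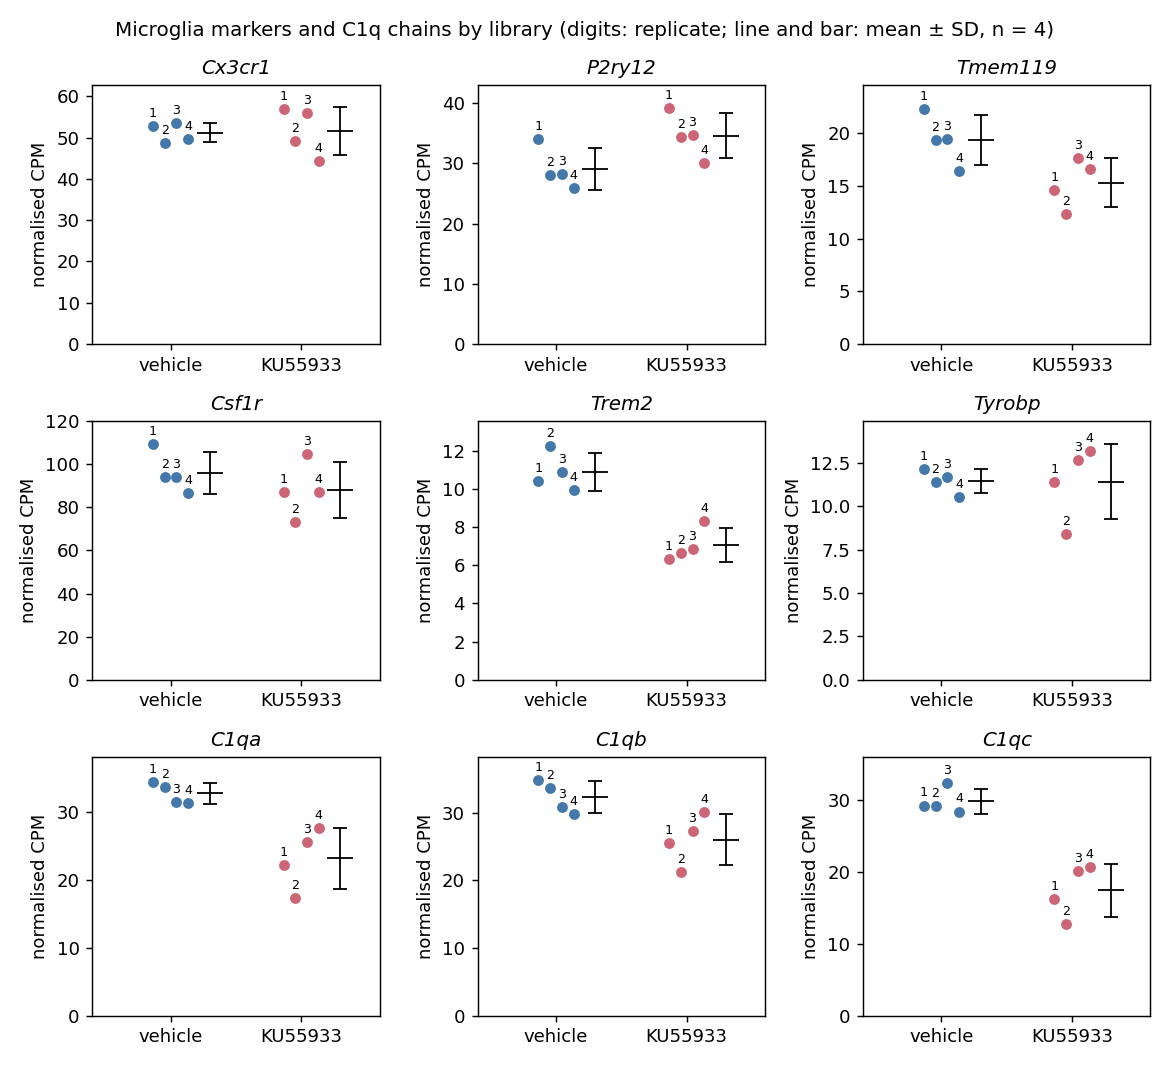
Normalised CPM (y axis, from 0) of the 9 genes in each library, vehicle in blue and KU55933 in red, with replicate digits and the mean ± SD beside the points (n = 4). The KU55933 points lie below every vehicle point for Trem2, C1qa and C1qc, and the groups overlap for the other genes.

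None of the 4 surface proteins that mark resting microglia, Cx3cr1, P2ry12, Csf1r and Tmem119, passed the test. Cx3cr1 stood at 52.9, 48.8, 53.6 and 49.6 CPM in vehicle libraries 1 to 4 and at 56.8, 49.2, 55.9 and 44.4 CPM in KU55933 libraries 1 to 4. The groups overlapped fully, and the log2 change was 0.011 ± 0.088 (SE; adjusted p = 0.944). P2ry12 measured 34.1, 28.1, 28.2 and 25.9 CPM in vehicle and 39.2, 34.4, 34.7 and 30.1 CPM in KU55933. KU55933 libraries 1 to 3 were above every vehicle library, but library 4 was below vehicle library 1, and the log2 change of 0.25 ± 0.11 did not pass (adjusted p = 0.11). P2ry12 was called higher only without vehicle library 1, at an adjusted p of 0.0308, among the runs that leave out 1 library.

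Csf1r, the receptor for CSF1 and IL-34, was the most abundant of the 9 genes, at 109, 93.8, 93.8 and 86.5 CPM in vehicle and 87.1, 73.1, 105 and 87.1 CPM in KU55933. Only KU55933 library 2 lay below all vehicle libraries, and the log2 change was -0.12 ± 0.11 (adjusted p = 0.438). Tmem119, a transmembrane protein used to tell microglia from blood-derived macrophages, measured 22.3, 19.3, 19.5 and 16.5 CPM in vehicle and 14.6, 12.4, 17.7 and 16.6 CPM in KU55933. In Tmem119 3 of 4 vehicle libraries were above every KU55933 library, yet vehicle library 4 was not, and the log2 change of -0.34 ± 0.13 did not pass (adjusted p = 0.0774).

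TREM2 and TYROBP work as a receptor and its signalling partner; Trem2 fell and Tyrobp did not pass the test. Trem2 measured 10.4, 12.3, 10.9 and 9.96 CPM in vehicle and 6.35, 6.65, 6.87 and 8.35 CPM in KU55933. Every KU55933 library was below every vehicle library, a pattern that 15.9% of all tested genes showed in the same direction and 26.7% in either direction. The group means were 10.9 ± 0.995 and 7.05 ± 0.889 CPM (SD, n = 4), 1.54-fold lower with KU55933, and the log2 change was -0.63 ± 0.12 (adjusted p = 0.00505). No single library was needed for the call, but without KU55933 libraries 1 and 2 together the adjusted p was 0.0593 (over all 22 alternatives, 4.19e-05 to 0.126). Tyrobp, in contrast, measured 12.2, 11.4, 11.7 and 10.6 CPM in vehicle and 11.4, 8.43, 12.7 and 13.2 CPM in KU55933. KU55933 libraries held both its highest and its lowest values, and the log2 change was -0.0040 ± 0.14 (adjusted p = 0.986). A difference between the Trem2 and Tyrobp changes was not tested.

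The chains of C1q assemble in equal numbers into one molecule and lie side by side on chromosome 4, in the order C1qb, C1qc, C1qa in RefSeq's gene table. C1qa measured 34.4, 33.7, 31.4 and 31.3 CPM in vehicle and 22.2, 17.3, 25.6 and 27.6 CPM in KU55933. The groups did not overlap, the means of 32.7 ± 1.58 and 23.2 ± 4.52 CPM (SD, n = 4) were 1.41-fold apart, and the log2 change was -0.50 ± 0.13 (adjusted p = 0.0212). The C1qa call ended without vehicle library 2 (adjusted p = 0.0576), without KU55933 library 1 (0.0526) and without KU55933 libraries 1 and 2 together (0.0688), within a range of 0.00311 to 0.638 over 22 alternatives.

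C1qc showed the widest gap of the 9 genes. It measured 29.2, 29.2, 32.4 and 28.4 CPM in vehicle and 16.2, 12.8, 20.1 and 20.7 CPM in KU55933, with no overlap. The means were 29.8 ± 1.77 and 17.4 ± 3.70 CPM (SD, n = 4), 1.71-fold lower with KU55933, and the log2 change was -0.77 ± 0.14 (adjusted p = 0.00389). This call held without each single library in turn and without KU55933 libraries 1 and 2 together (adjusted p = 0.0111; 5.17e-06 to 0.0993 over 22 alternatives). C1qb measured 34.8, 33.7, 30.8 and 29.8 CPM in vehicle and 25.6, 21.2, 27.3 and 30.1 CPM in KU55933. Only KU55933 library 4 reached into the vehicle range, and the log2 change of -0.31 ± 0.11 did not pass (adjusted p = 0.0616). It passed with DESeq2 and, with edgeR, without KU55933 library 4 (adjusted p = 0.0286).

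The first 240 coding bases of the main transcript of each chain are shown because the chains are alike in plan. C1qa and C1qc were called lower and C1qb was not. P2ry12, the member of lowest GC content, is shown for contrast. The sequences are from GENCODE release M21, and capitals mark in-frame GGN codons, which encode glycine; the collagen-like stretch of C1q repeats glycine at a period of 3 residues.
C1qa: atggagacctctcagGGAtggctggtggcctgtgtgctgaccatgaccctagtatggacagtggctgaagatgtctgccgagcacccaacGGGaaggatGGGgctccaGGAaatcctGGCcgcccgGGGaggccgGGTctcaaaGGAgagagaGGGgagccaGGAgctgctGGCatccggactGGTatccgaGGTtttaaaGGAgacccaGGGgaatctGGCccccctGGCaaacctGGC
C1qb: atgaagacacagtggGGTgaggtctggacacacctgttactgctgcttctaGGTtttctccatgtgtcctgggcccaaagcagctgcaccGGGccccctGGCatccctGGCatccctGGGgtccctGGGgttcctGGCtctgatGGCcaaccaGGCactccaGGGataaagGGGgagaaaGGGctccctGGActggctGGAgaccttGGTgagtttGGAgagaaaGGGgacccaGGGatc
C1qc: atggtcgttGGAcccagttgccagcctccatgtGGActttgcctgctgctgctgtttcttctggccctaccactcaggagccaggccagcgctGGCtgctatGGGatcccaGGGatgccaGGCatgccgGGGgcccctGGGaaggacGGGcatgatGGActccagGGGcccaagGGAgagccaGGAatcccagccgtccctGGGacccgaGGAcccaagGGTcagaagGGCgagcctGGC
P2ry12: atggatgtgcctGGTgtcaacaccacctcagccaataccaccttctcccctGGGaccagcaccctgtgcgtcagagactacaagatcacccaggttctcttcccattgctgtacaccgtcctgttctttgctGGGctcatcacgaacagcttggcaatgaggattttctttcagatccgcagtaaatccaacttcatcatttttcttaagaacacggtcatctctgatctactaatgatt
Of the 80 codons shown, GGN codons took 18 in C1qa, 19 in C1qb, 18 in C1qc and 3 in P2ry12. The longest run of GGN at a period of 3 codons was 16 in C1qa, 29 in C1qb, 16 in C1qc and 2 in P2ry12, over the whole coding sequence. GC content of the shown bases was 62.1%, 60.4% and 65.8% for C1qa, C1qb and C1qc and 47.9% for P2ry12. Over the whole transcript, C1qb (57.4% GC, 1088 bases) and C1qc (57.5% GC, 1203 bases) were nearly equal, but the GC was placed differently. C1qc held 61.8% GC inside its coding sequence and 50.6% outside it, and C1qb 58.3% and 55.2%. Whether this placement bears on the changes was not tested.

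C1qc was low relative to C1qa and C1qb in KU55933, with or without the GC and length offset described further on, while the ratio of C1qa to C1qb differed between the groups only without the offset. Within a library, the ratio of 2 chains does not depend on library scaling, but it does depend on that offset. The log2 ratio of C1qb to C1qc was 0.25, 0.21, -0.07 and 0.07 in vehicle libraries 1 to 4 and 0.66, 0.73, 0.44 and 0.54 in KU55933 libraries 1 to 4. The ratio was higher in all 4 KU55933 libraries than in any vehicle library, and the group means differed by 0.48. The log2 ratio of C1qa to C1qc was 0.24, 0.20, -0.05 and 0.14 in vehicle and 0.45, 0.44, 0.35 and 0.41 in KU55933, a difference of 0.28. For C1qa to C1qb the ratio moved the other way, from -0.014, -0.0021, 0.028 and 0.073 in vehicle to -0.21, -0.29, -0.09 and -0.12 in KU55933, a difference of -0.20. The groups did not overlap in any of the 3 ratios. Each had an exact two-sided permutation p of 0.0286, the smallest that 70 arrangements allow, and 0.0286 after adjustment over the 3. Any 2 of the ratios fix the third, so they are not 3 separate results. How many other gene pairs show such a gap was not tested. For C1qa to C1qb, leaving out vehicle library 2, 3 or 4 gave an adjusted exact p of 0.0571. On the offset log2 CPM scale the C1qa to C1qb difference was 0.024 with overlapping groups (adjusted exact p = 0.571), so its direction flipped. On that scale C1qa to C1qc differed by 0.48 and C1qb to C1qc by 0.46, each without overlap and with an adjusted exact permutation p of 0.0429.

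**Figure D2:**
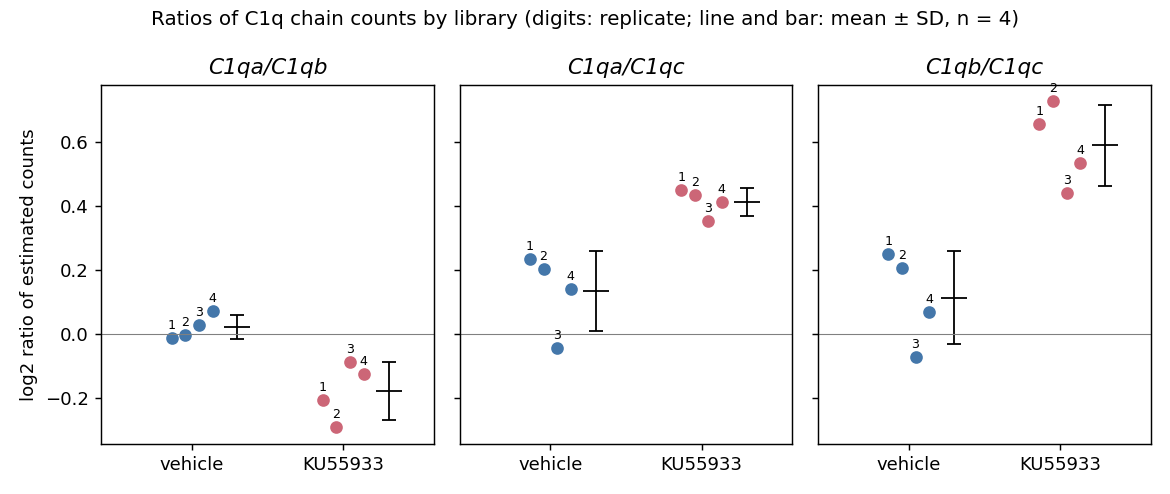
Log2 ratio of the estimated counts of 2 C1q chains (y axis) in each vehicle (blue) and KU55933 (red) library, with the mean ± SD beside the points (n = 4). In these counts the groups are apart in all 3 panels, most widely for C1qb to C1qc, where the means differ by 0.48; with the GC and length offset, not drawn, the groups overlap for C1qa to C1qb.

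The log2 change tended to be lower where GC content was higher, but its size did not follow GC content gene by gene. C1qb and C1qc, nearly equal in GC content, changed by -0.31 and -0.77. The exonic GC content was 39.6% for P2ry12, 49.8% for Cx3cr1, 53.9% for Csf1r, 54.8% for Tyrobp, 55.9% for Trem2, 57.4% for C1qb, 57.5% for C1qc, 59.1% for Tmem119 and 59.5% for C1qa. Spearman's rho between GC content and log2 change was -0.80 over the 9 genes, which share the same libraries, so it is a description. When all genes were ranked by GC content and cut into 10 equal bins, 41.4% of genes were called lower in the bin of C1qb, C1qc and Trem2 and the median log2 change there was -0.36. In the bin of C1qa and Tmem119, 74.1% were called lower and the median was -0.66, so the C1qa change of -0.50 was smaller in size than the median of genes of like composition. In the bin of P2ry12, 26.3% were called higher and the median was 0.24, close to the 0.25 of P2ry12.

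**Figure D3:**
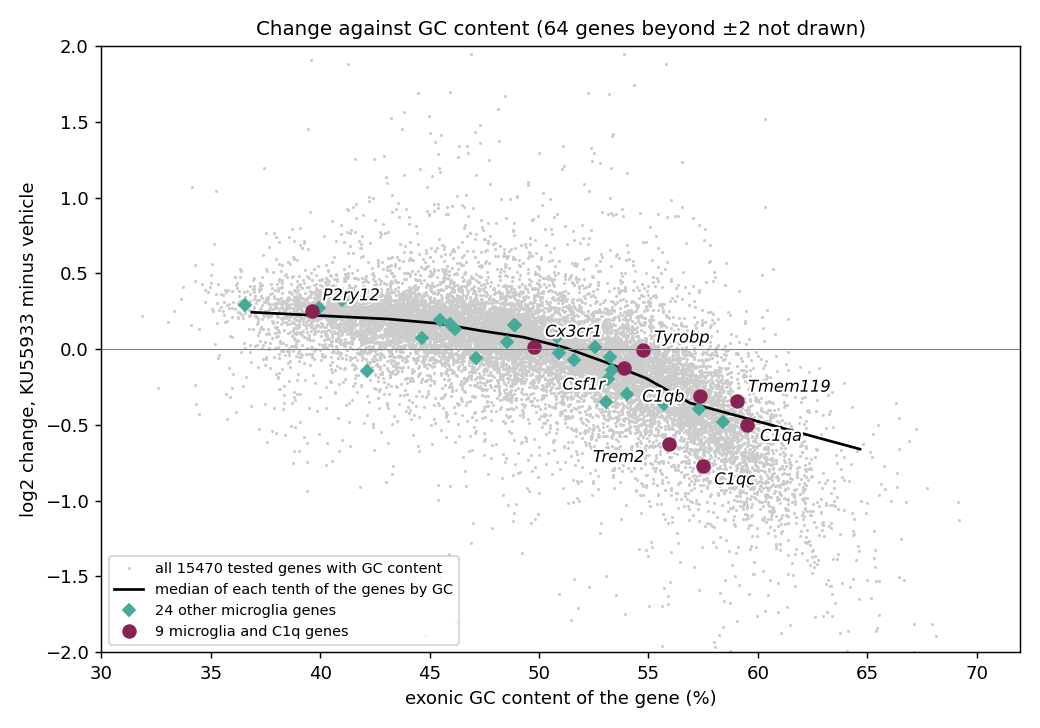
Log2 change, KU55933 minus vehicle (y axis), against exonic GC content in percent (x axis) for tested genes (grey), 24 other microglia genes (green) and the 9 genes described (purple), with the median of each of 10 GC bins as a line. C1qc and Trem2 lie below the line, at -0.77 and -0.63, and the other 7 lie near it or above it; 64 genes beyond ±2 are not drawn.

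A second fit gave each library an offset from splines of its log2 CPM on GC content and transcript length, so that a change is read relative to genes of like composition. Such an offset also removes a treatment difference that happens to follow GC content, and both cannot be told apart in this design. With it, 1.3% of all tested genes were called lower, 0.691% higher and 2.0% in either direction. Of the 9 genes, 0 were called by edgeR. An unadjusted p under 0.05 was reached by 2441 of the 15481 tested genes and by 2 of the 9. Those were C1qc, at -0.34 ± 0.09 (unadjusted p = 0.00338, adjusted p = 0.0946), and Trem2, at -0.34 ± 0.09 (unadjusted p = 0.00428, adjusted p = 0.105). With the offset and 1 library left out, adjusted p ran from 0.0982 to 0.237 for C1qc and from 0.0983 to 0.273 for Trem2, and without KU55933 libraries 1 and 2 together it was 0.378 and 0.367. Both kept groups without overlap, as did 5.23% of all tested genes in that direction and 4.51% in the other. On the offset log2 CPM scale, C1qc stood at 4.75, 4.64, 4.72 and 4.58 in vehicle and 4.33, 4.09, 4.48 and 4.41 in KU55933, and Trem2 at 3.33, 3.46, 3.25 and 3.17 against 2.91, 3.00, 2.88 and 3.07.

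With the offset the groups of the other 7 genes overlapped. C1qa moved from -0.50 to 0.13 ± 0.10 and C1qb from -0.31 to 0.11 ± 0.09, both with overlapping groups, so their direction flipped with the offset. Tmem119 went from -0.34 to 0.22 ± 0.12 and P2ry12 from 0.25 to 0.06 ± 0.11. Cx3cr1 stood at -0.04 ± 0.08, Csf1r at -0.0071 ± 0.11 and Tyrobp at 0.15 ± 0.11 with the offset. Adjusted p for these 7 ran from 0.407 for Tmem119 to 0.981 for Csf1r.

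**Figure D4:**
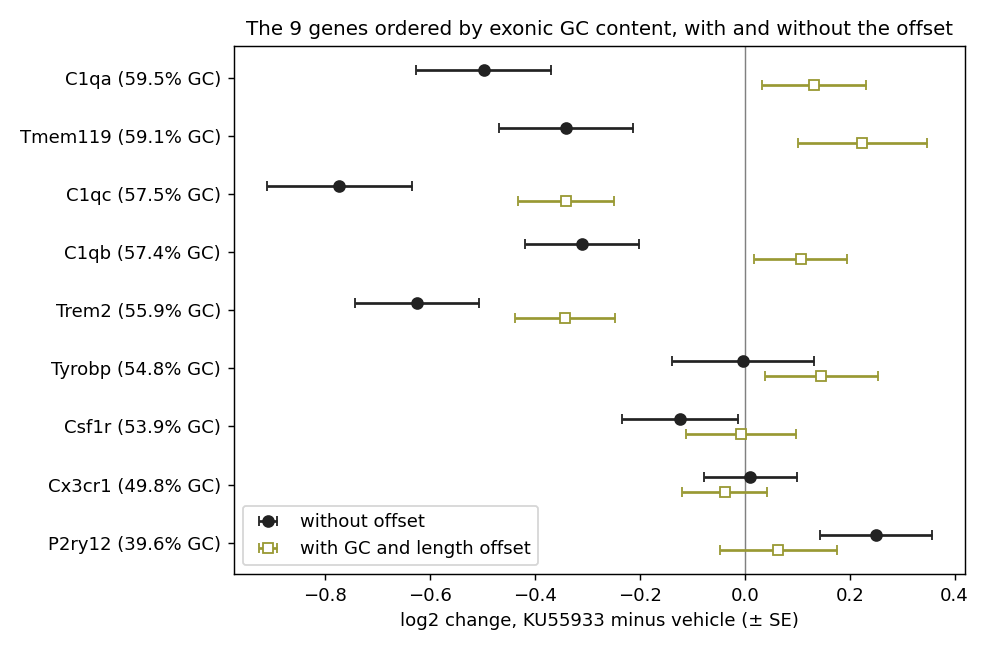
Log2 change, KU55933 minus vehicle (x axis, ± SE), of the 9 genes ordered by GC content, without the offset (filled circles) and with the GC and length offset (open squares). C1qc and Trem2 are at -0.34 with the offset and the other 7 genes lie between -0.04 and 0.22.

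Per kilobase of transcript, which takes out transcript length but not GC content, the C1q chains led in vehicle. C1qa stood at 31.4 ± 1.52 CPM per kb and C1qb at 29.7 ± 2.16 (SD, n = 4), with overlapping libraries, and C1qc at 24.8 ± 1.47, which overlapped Csf1r at 24.7 ± 2.48. Tyrobp followed at 19.2 ± 1.13, then P2ry12 at 14.9 ± 1.79 and Cx3cr1 at 14.4 ± 0.666, which overlapped each other, Tmem119 at 8.66 ± 1.06 and Trem2 at 5.45 ± 0.498. In KU55933 the order was C1qb at 23.9 ± 3.42 CPM per kb, Csf1r at 22.7, C1qa at 22.3, Tyrobp at 19.1, P2ry12 at 17.7, C1qc at 14.5 and Cx3cr1 at 14.5, each overlapping the next. Tmem119 at 6.84 ± 1.04 and Trem2 at 3.53 ± 0.445 again came last, each apart from its neighbours. Without the offset, C1qc thus went from the level of Csf1r to that of Cx3cr1. These genes differ in GC content, and the log2 change of C1qc was -0.77 without the offset and -0.34 with it.

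Of the 24 transcripts of the 9 genes, 18 passed the filter at transcript level, where 5.7% of 45343 transcripts were called lower, 1.06% higher and 6.76% in either direction. Of these, 2 were called lower, the main transcripts of C1qc and Trem2, and 0 were called higher (1 at an unadjusted p under 0.05 by edgeR; no other tool was run on transcripts). C1qc ENSMUST00000046332 changed by -0.81 ± 0.16 (adjusted p = 0.0193) and held 99.3% of the gene's counts in each group. That call ended without vehicle library 3 (adjusted p = 0.0671) and without KU55933 library 1 (0.0790). Trem2 ENSMUST00000024791, which is protein-coding with 57.5% GC, changed by -0.89 ± 0.18 (adjusted p = 0.0252). The Trem2 transcript call ended without each library in turn other than KU55933 library 4 (adjusted p up to 0.0962) and with another scaling of the libraries (0.0618).

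The main transcript's mean share of Trem2 RNA was 68.2% ± 2.43 (SD, n = 4) for vehicle mice and 58.0% ± 10.1 for KU55933 mice, with overlapping groups. ENSMUST00000024791 made up 70.7%, 65.1%, 69.4% and 67.7% of Trem2 counts in vehicle and 71.0%, 46.6%, 55.0% and 59.5% in KU55933, so that only KU55933 library 1 kept the vehicle share. The Trem2 retained-intron transcript ENSMUST00000132340 has 51.0% GC and changed by -0.25 ± 0.28 (adjusted p = 0.705). The shorter coding transcript ENSMUST00000113237, with 57.5% GC, changed by -0.28 ± 0.32 (adjusted p = 0.711). With the offset fitted on transcripts, 0 of the 18 were called, where 1.01% of all tested transcripts were called lower, 1.05% higher and 2.06% in either direction. By edgeR 3 of the 18 had an unadjusted p under 0.05, all in the higher direction. They were Cx3cr1 ENSMUST00000215016 at 1.72, the main Tmem119 transcript at 0.47 and the C1qa transcript at 0.34. The main transcripts of C1qc and Trem2 stood at -0.21 ± 0.13 and -0.28 ± 0.21 (unadjusted p by edgeR 0.134 and 0.216).

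Of the 22 transcripts that share their gene with another, 2 minor ones took a higher share of the gene's counts in every KU55933 library than in any vehicle library, and 1, the main Tyrobp transcript, a lower one. Over 67690 transcripts of all such genes, 4.47% showed the first pattern and 5.75% the second. Tyrobp has only 2 transcripts, so the lower share of its main transcript mirrors the higher share of the other and is no separate result. Cx3cr1 ENSMUST00000215016 held 24, 4, 11 and 12 counts in vehicle and 21, 37, 46 and 31 counts in KU55933, or 0.574% ± 0.327 and 1.84% ± 0.514 of Cx3cr1 counts (SD, n = 4). Its log2 change of 1.61 ± 0.50 did not pass (adjusted p = 0.106). The Tyrobp transcript annotated for nonsense-mediated decay, ENSMUST00000208125, held 1 or 2 counts in each vehicle library and 2 to 5 in each KU55933 library, and was too low to test. Counts this low are split between isoforms by the authors' quantification, whose error is not in the table.

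Of 24 other genes of resting microglia 0 were called higher by edgeR (1 by DESeq2, 0 by limma-voom) and 3, or 12.5%, were called lower, near the 14.6% of all tested genes. Of the 24, 5 had an unadjusted p under 0.05, against 5846 of all 15481 tested genes, and the median log2 change was -0.0070. Selplg, a ligand for selectins, fell by 0.48, Bin1, a membrane-curving adaptor also expressed in oligodendrocytes and neurons, fell by 0.39 and Laptm5, a lysosomal membrane protein of leukocytes, fell by 0.36 on the log2 scale (adjusted p 0.0380, 0.0301 and 0.0318). All 3 have a GC content of 55.7% or more, and with the offset they stood at 0.03, 0.0028 and -0.10. The Bin1 call ended without vehicle library 2, 3 or 4 or KU55933 library 2 (adjusted p up to 0.0865). The Laptm5 call ended without each library other than KU55933 library 3 (up to 0.0810), and the Selplg call without each library other than KU55933 libraries 3 and 4 (up to 0.0897).

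Spi1, which encodes PU.1, the transcription factor that microglia and other myeloid cells depend on, fell with KU55933. It measured 2.30, 2.30, 2.31 and 2.73 CPM in vehicle and 1.38, 0.90, 1.33 and 1.18 CPM in KU55933. The groups did not overlap, and the log2 change was -1.01 ± 0.18 (adjusted p = 0.00424; 0.000111 to 0.154 over 22 alternatives, the upper end with an offset). With the GC and length offset Spi1 stood at -0.56. Spi1 was the only 1 of 8 microglia transcription factors called, or 12.5% called lower against 14.6% of all tested genes, and the median of the 8 was -0.22. With the offset 1 of the 8 was called higher, Cebpa, at 0.51. Without the offset Cebpa stood at -0.21 with overlapping groups (adjusted p = 0.254), so its direction flipped. Cebpa is named after its values were seen.

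Ligands and partners of the receptors gave 3 lower and 1 higher of 14 tested (21.4% and 7.14%, against 14.6% and 6.92% of all tested genes), with a median of 0.02. Tgfb1, the growth factor that maintains the resting microglial state, measured 3.71, 2.94, 4.62 and 4.41 CPM in vehicle and 2.22, 1.47, 2.24 and 1.64 CPM in KU55933. These groups were apart, and the log2 change was -1.05 ± 0.20 (adjusted p = 0.00522), but Tgfb1 has 62.2% GC and stood at -0.09 with the offset. Gas6, a ligand of phagocytic receptor kinases, fell by 0.29 and Cx3cl1, the fractalkine that binds CX3CR1, fell by 0.23, whereas Cd200, a neuronal ligand that quiets microglia, rose by 0.36 on the log2 scale (adjusted p 0.0215, 0.0477 and 0.0346). With the offset Gas6 stood at 0.05, Cx3cl1 at 0.14 and Cd200 at 0.19, so the direction of Gas6 and Cx3cl1 flipped. The Gas6 call ended without vehicle library 2 or 3 (up to 0.0768), the Cd200 call without vehicle library 2, 3 or 4 or KU55933 library 1 or 2 (up to 0.0991) and the Cx3cl1 call without each library other than KU55933 library 4 (up to 0.122).

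A list for TREM2, TYROBP and CSF1R signalling gave 0 calls of 13 tested by edgeR, DESeq2 or limma-voom, where edgeR called 21.6% of all tested genes. Not all of the list lies downstream of these receptors. Of the 13, 1 had an unadjusted p under 0.05 by edgeR, and the median log2 change was -0.0027. The 2 most abundant were Sirpa, an inhibitory receptor for CD47 that neurons also express, at 0.07 ± 0.07, and Grb2, an adaptor found in most cells, at 0.03 ± 0.07. Genes of activated microglia gave 1 higher and 1 lower of 16 tested and a median of 0.10. That is 6.25% in each direction, against 6.92% higher and 14.6% lower of all tested genes. Ctsl, a lysosomal protease, rose by 0.30 and Gpnmb, a transmembrane glycoprotein of phagocytes, fell by 0.59 on the log2 scale (adjusted p 0.0357 and 0.0239). The offset left Gpnmb at -0.65 and Ctsl at 0.18. The Ctsl call ended without vehicle library 2, 3 or 4 or KU55933 library 1 or 2 (up to 0.10), and the Gpnmb call without vehicle library 2 or 4 or KU55933 library 3 (up to 0.0792). The cytokines Il1b, Tnf, Ccl3 and Ccl4 and the protease inhibitor Cst7 were too low to test.

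Of 12 complement components and receptors other than C1q that were tested, 0 were called by edgeR, DESeq2 or limma-voom, where edgeR called 21.6% of all tested genes. C1rb, C4a and Cfd were not analysed here and Cfb was too low to test. Of the 12, 1 had an unadjusted p under 0.05 by edgeR and the median log2 change was 0.05. C4b, which C1 cleaves once C1q has bound, measured 34.8, 30.6, 38.4 and 30.3 CPM in vehicle and 23.4, 24.9, 31.0 and 31.8 CPM in KU55933, and its log2 change of -0.27 ± 0.12 did not pass (adjusted p = 0.122). Itgam, a subunit of complement receptor 3, which also stands among the resting microglia genes, was at 0.16 ± 0.12 (adjusted p = 0.360). Complement inhibitors gave 1 higher and 1 lower of 12 and a median of 0.27. That is 8.33% in each direction, against 6.92% higher and 14.6% lower of all tested genes. Cr1l, which limits C3 deposition in rodents, rose by 0.34 and Csmd2, a CUB and sushi domain protein of neurons, fell by 0.32 on the log2 scale (adjusted p 0.0359 and 0.0494). With the offset Cr1l stood at 0.16 and Csmd2 at -0.16 (adjusted p 0.439 and 0.416), and neither was called. The Cr1l call ended without vehicle library 2, 3 or 4 or KU55933 library 1 or 2 (up to 0.111), and the Csmd2 call without each library other than vehicle library 1 and KU55933 library 4 (up to 0.141).

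**Figure D5:**
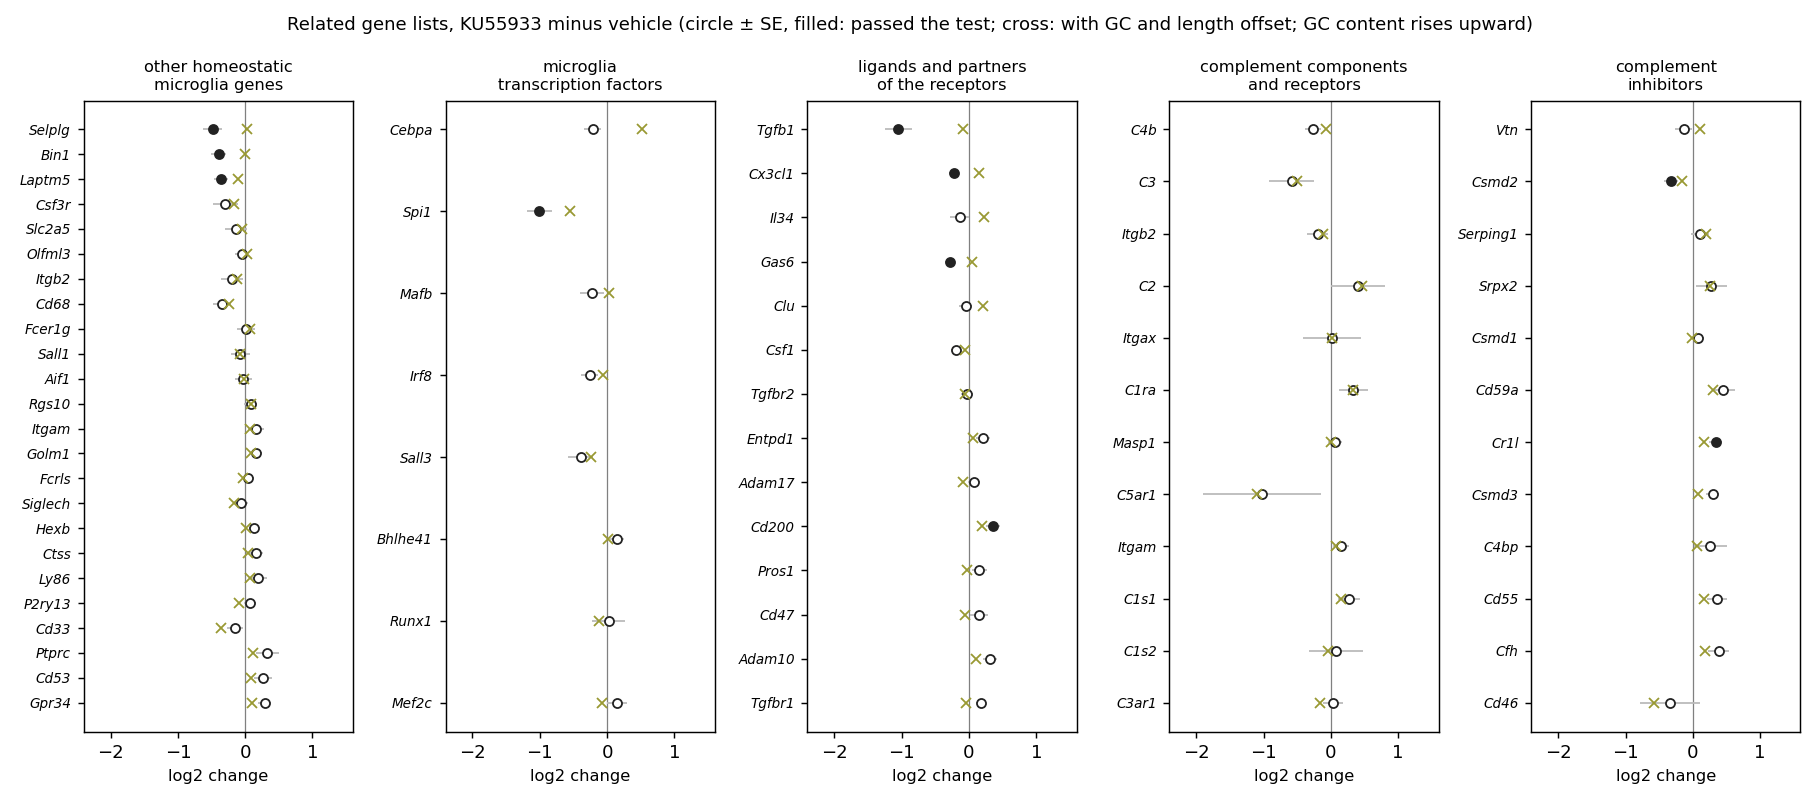
Log2 change, KU55933 minus vehicle (x axis), of the tested genes in 5 lists, ordered upward by GC content: circles with SE without the offset, filled where the gene passed the test, and crosses with the GC and length offset. In the list of 12 complement components and receptors no circle is filled; among the transcription factors the filled circle is Spi1, at -1.01.

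Border macrophages, which lie in the meninges and around vessels and share C1q and several receptors with microglia, gave 1 higher and 1 lower of 10 markers. That is 10% in each direction, against 6.92% higher and 14.6% lower of all tested genes. Lyve1 rose by 0.94 ± 0.22 (adjusted p = 0.0137), at low means of 0.759 CPM in vehicle and 1.46 CPM in KU55933. Stab1, a scavenger receptor, fell by 0.54 ± 0.13 (adjusted p = 0.0187), a call that ended without vehicle library 3 or KU55933 library 2 (up to 0.0597). With the offset Lyve1 stood at 0.79 and Stab1 at -0.18 (adjusted p 0.105 and 0.420), and neither was called. The median log2 change of the 10 markers was 0.41, or 0.24 with the offset. By edgeR 5 of the 10 had an unadjusted p under 0.05, against 5846 of all 15481 tested genes. The 10 markers summed to 26.3 to 31.7 CPM in vehicle and 23.0 to 29.2 CPM in KU55933, and none was at 0 in all libraries. Of these sums, Stab1 alone held a mean of 19.7 CPM in vehicle and 13.6 CPM in KU55933. The 9 genes summed to 289 to 340 CPM in vehicle and 235 to 305 CPM in KU55933. The part of border macrophages in the changes of C1qc, Trem2 and C1qa was not tested, nor was that of the choroid plexus markers of KU55933 libraries 1 and 2. Without those 2 libraries the log2 change was -0.54 for C1qc, -0.51 for Trem2 and -0.29 for C1qa.

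Upstream sequence is shown for 4 of the genes because PU.1, whose transcript fell, binds purine-rich sites of the ETS type. RefSeq's promoter table (GRCm38.p6) held 5 of the 9 genes. Each sequence is on the gene's strand, 5′ to 3′, up to the base before the RefSeq start or, for C1qc, before the first annotated exon. Capitals mark AGGAAGT, or GAGGAAGT, which contains it, on either strand; these letters were chosen after the sequences were seen.
P2ry12, chr3:59262986-59263235, minus strand: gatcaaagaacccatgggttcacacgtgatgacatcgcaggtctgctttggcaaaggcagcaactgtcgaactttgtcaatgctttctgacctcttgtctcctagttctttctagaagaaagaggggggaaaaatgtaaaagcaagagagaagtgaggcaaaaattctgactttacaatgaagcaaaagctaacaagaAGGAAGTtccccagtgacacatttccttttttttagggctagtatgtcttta
C1qb, chr4:136886201-136886450, minus strand: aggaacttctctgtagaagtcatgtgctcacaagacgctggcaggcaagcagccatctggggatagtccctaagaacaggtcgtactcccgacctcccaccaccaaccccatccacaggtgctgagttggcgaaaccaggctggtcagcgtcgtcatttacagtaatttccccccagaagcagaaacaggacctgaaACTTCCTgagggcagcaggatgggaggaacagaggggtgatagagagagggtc
C1qc, chr4:136893066-136893164, minus strand: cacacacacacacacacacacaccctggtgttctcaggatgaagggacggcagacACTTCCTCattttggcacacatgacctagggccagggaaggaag
Trem2, chr17:48346151-48346400, plus strand: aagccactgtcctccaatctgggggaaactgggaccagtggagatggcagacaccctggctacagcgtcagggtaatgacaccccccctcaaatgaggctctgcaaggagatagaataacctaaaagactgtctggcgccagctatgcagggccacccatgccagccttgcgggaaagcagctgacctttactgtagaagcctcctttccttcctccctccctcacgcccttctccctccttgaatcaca
AGGAAGT was found 52 bases upstream of the RefSeq start in P2ry12, 53 in C1qb and 195 in C1qc, where it was part of GAGGAAGT. For C1qc the window up to the RefSeq start ends at base 136892915, beyond the printed end at 136893066. The C1qc distance is therefore longer than the printed letters show, and the site lies closer to the first annotated exon. It was not found in these letters in Trem2 or Cx3cr1. Of 32851 windows of 250 bases in the table, 7.69% held AGGAAGT and 2.44% held GAGGAAGT. Because the letters were chosen after these sequences were seen, that share is no test of these finds. P2ry12 and C1qb were not called, and C1qc and Trem2 were called lower. Regulation of the 9 genes by PU.1 was not tested.

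The genes whose levels followed the 9 most closely across the 8 libraries were Efhd2 (Pearson's r 0.994 with the mean centred log2 CPM of the 9), Itgb5 (0.993), Gnai2 (0.990), Nkiras2 (0.988), Pnkd (0.987), Phgdh (0.986), Pard6a (0.986) and Bcl7b (0.986). They are the top 8 of 13250 ranked genes, and r is a description over 8 libraries that share the treatment contrast. Their GC content lay between 56.0% and 58.8%, near the 55.9% median of the 9 genes.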

How the data were processed

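Per the labels, RNA was column-purified and libraries were made with the TruSeq Stranded mRNA kit. Per the submitters' processing notes, tools were FastQC 0.11.9, Salmon 1.4.0 and DESeq2 1.32.0, with build GRCm39; the settings used with them are not given in the sources used here. Values as deposited are estimated counts per transcript. They were rounded and summed per gene. The main fit was edgeR 4.0.16 (R 4.3.3; TMM, filterByExpr, robust quasi-likelihood F test, two-sided, Benjamini-Hochberg over all genes tested), without covariates, on 4 against 4 libraries; the same fit was run per transcript. Depth was 34190440 to 46630341 estimated counts per library. Fits were also run on simulated counts with a fixed spread and a linear GC trend or none. The simulated trend was alike within each group, unlike in these libraries, so those runs do not vouch for the offset here. GC content and length came from GENCODE M21 (GRCm38), which held 99.7% of the transcripts by identifier; the offset used splines with 6 and 5 degrees of freedom. No pair of libraries agreed within counting noise.

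Ratios of C1q chains were compared by exact permutation. Alternatives were other scalings and filters, DESeq2 1.42.0, limma-voom (limma 3.58.1), 1 surrogate variable (sva 3.50.0), a replicate block, offsets, an adjusted p of 0.1 and leaving out libraries; leaving out libraries under the offset and chain ratios under the offset were added after the data were seen. The 9 genes and all lists were chosen with earlier results of these data known. Named from each related list were up to 4 called genes, smallest p first, or the 2 most abundant where none was called, and the 8 genes most like the 9 at 1 CPM or more. Marker lists of blood, astrocytes, neurons, oligodendrocytes, endothelium and choroid plexus are given as counts only.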

Additional observations from a re-analysis of the deposited data

Results flagged for a closer look

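In groups of 4 libraries, 3 of 60 groups of a gene's CPM values held 1 library far from the other 3; chance flags about 1 in 20. For Spi1, vehicle library 4 stood at 2.73 CPM and the nearest vehicle library at 2.31 CPM. For Gas6, vehicle library 3 stood at 74.7 CPM and the nearest at 70.1 CPM. For Itgam, vehicle library 1 stood at 26.3 CPM and the nearest at 19.4 CPM. In the groups of the 9 genes themselves no library was flagged in this way. Without vehicle library 4 the Spi1 log2 change was -0.94, and without vehicle library 3 the Gas6 log2 change was -0.26.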

How the results depend on the processing

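Across 22 alternatives C1qc, Trem2 and Spi1 kept their direction, and C1qa did so in all but the 3 fits with an offset. The calls of C1qa, C1qc and Trem2 held under every scaling, filter and tool tried without an offset. Whether the replicate numbers pair the libraries was not settled (same-number correlations of 0.29, 0.084, 0.039 and 0.20), so the block is given here only. The other pairings ran from -0.22 to 0.11. Vehicle libraries 1, 2 and 4 correlated best with the KU55933 library of the same number, and vehicle library 3 with KU55933 library 2. With the replicate block 1720 genes were higher, 1 of the 9 genes was higher (P2ry12, adjusted p = 0.0282) and 1517 transcripts were lower, and the calls of both member transcripts ended (adjusted p 0.0551 for C1qc and 0.0873 for Trem2). With the block and the offset 360 genes were higher and 463 lower, and 1 of the 9 was lower (C1qc, adjusted p = 0.0390).

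The number of genes called higher was 692 without a low-count filter, 1840 with DESeq2, 2172 at an adjusted p of 0.1, 78 with a GC offset, 107 with GC and length and 105 without KU55933 libraries 1 and 2. Genes called lower numbered 150 with a GC offset, 202 with GC and length and 985 without those libraries. Leaving out 1 library gave 151 to 1790 higher and 1446 to 2558 lower genes, 231 to 776 higher and 1209 to 2242 lower transcripts, and 0 or 1 of the 9 higher. Of the 9, 0 were lower with either offset, 1 without KU55933 libraries 1 and 2 and 5 at an adjusted p of 0.1. Transcripts called lower numbered 1723 with RLE scaling and 458 with the offset. The C1qa to C1qb difference ran from -0.23 to -0.16 without 1 library and was 0.024 with the GC and length offset.

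With an offset, GC alone or with length, the related lists had 0 calls, except 1 higher transcription factor; with the block added, activated microglia gave 2 higher and 1 lower and inhibitors 1 lower. Resting microglia gave 1 higher under RLE or upper-quartile scaling, the 1 CPM filter, the block, DESeq2, a surrogate variable and an adjusted p of 0.1. Ligands gave 2 higher under upper-quartile scaling, the block, DESeq2, a surrogate variable and 0.1. Inhibitors gave 2 higher under upper-quartile scaling, the 1 CPM filter, DESeq2 and a surrogate variable, 4 with the block and 5 at 0.1. Inhibitors gave 0 lower under RLE or upper-quartile scaling, without a filter, with non-robust dispersion and with limma-voom. Activated microglia gave 2 higher with the block and 2 lower with a surrogate variable or 0.1, border macrophages 2 higher with DESeq2 or 0.1, signalling 1 lower at 0.1, and complement components 1 higher without a filter. Without KU55933 libraries 1 and 2 the lists gave 0 where they had calls, except 1 lower transcription factor and 1 lower ligand, and 1 higher complement component. Without 1 library, higher calls ran from 0 to 2 (resting), 0 to 1 (transcription factors), 0 to 3 (ligands), 0 to 2 (activated), 0 to 1 (components), 0 to 3 (inhibitors) and 1 to 2 (border macrophages). Lower calls ran from 0 to 3, 1 to 3 for ligands, and 0 to 1 for activated, inhibitors and border macrophages.

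Direction flipped for these log2 changes, and the cause was not tested. With the GC offset, the GC and length offset, and the latter with the block, in that order, Cx3cr1 was at -0.037, -0.039 and -0.044, Tmem119 at 0.22, 0.22 and 0.24, C1qa at 0.11, 0.13 and 0.14, C1qb at 0.084, 0.11 and 0.11, Tyrobp at 0.18, 0.15 and 0.14, Selplg at 0.012, 0.026 and 0.025, Gas6 at 0.051, 0.048 and 0.044 and Cx3cl1 at 0.15, 0.14 and 0.15. Bin1 was at 0.0043 and 0.0028 with the 2 offsets and Csf1r at 0.00048 with GC alone. Cebpa was at -0.21 without an offset and at 0.51 with the GC and length offset. Cx3cr1 was at -0.040 with a surrogate variable and Tyrobp at 0.00082 with upper-quartile scaling. Without KU55933 libraries 1 and 2, Cx3cr1 was at -0.024, Csf1r at 0.0049 and Tyrobp at 0.18, and with the offset too, P2ry12 was at -0.0076 and Csf1r at 0.085. Main transcripts with the offset were at 0.47 for Tmem119, 0.092 for Csf1r, 0.34 for C1qa, 0.24 for C1qb and 0.16 for Tyrobp (0.042 with RLE scaling), and Trem2 ENSMUST00000113237 at 0.31. Without 1 library, values ran from -0.039 to 0.078 for Cx3cr1 and -0.078 to 0.11 for Tyrobp, and, with the offset, from -0.088 to 0.070 for Csf1r, -0.085 to 0.021 for Cx3cr1 and -0.0047 to 0.16 for P2ry12. Among transcripts they ran from -0.27 to 0.0090 for Csf1r ENSMUST00000025523, -0.12 to 0.98 for P2ry12 ENSMUST00000199609 and -0.10 to 0.16 for Tyrobp ENSMUST00000207982.

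Depth limits the rarer transcripts: Spi1 stayed under 3 CPM and Lyve1 at 1.67 CPM or less. The minor transcripts of Cx3cr1 and Tyrobp rest on 1 to 46 counts per library.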
